A study of Mus musculus with 6 samples.

Results

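The mRNAs described here are the 6 that the mitochondrial genome encodes for complexes III, IV and V of oxidative phosphorylation, among 47729 genes counted in the RNA of extracellular vesicles (EVs). They were taken by name as every protein-coding gene of that genome outside complex I, namely mt-Cytb for complex III, mt-Co1, mt-Co2 and mt-Co3 for complex IV, and mt-Atp6 and mt-Atp8 for complex V. The EVs came from a single line of mouse B lymphoma cells, WEHI-231. Cells at 500000 in 1 mL were stimulated for 1 h with 10 µg/mL of the rat antibody M1/69 against CD24, a surface protein that is anchored in the membrane by a lipid, or with a matched isotype control. A secondary antibody at 5 µg/mL was bound to either antibody beforehand, so that the groups share this agent. There were 3 biological replicates of the isotype group and 3 of the anti-CD24 group. The EVs were captured from the cleared medium with the Vn96 peptide, and their RNA was sequenced without fragmentation and without removal of rRNA. Since the RNA was measured in bulk, fewer vesicles that carry an mRNA and less of that mRNA in each vesicle cannot be told apart.

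Mitochondrial DNA encodes a small set of hydrophobic subunits that sit at the core of the respiratory chain, and all other subunits of these complexes come from nuclear genes. Each strand is transcribed into a long precursor, from which most mRNAs are released by cutting out the tRNAs that lie between them, and they then receive a short poly(A) tail. mt-Atp8 and mt-Atp6 have no tRNA between them and stay together on a single mRNA with overlapping reading frames. The word mRNA is used here for each gene as counted, so these genes are listed as separate members. In B cells, as in other cells, these mRNAs are made and translated inside mitochondria.

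All 6 genes lie on the same strand of the mitochondrial genome of GRCm38, are single exons and start with ATG. mt-Cytb spans chrM:14145-15288, mt-Co1 chrM:5328-6872, mt-Co2 chrM:7013-7696, mt-Atp8 chrM:7766-7969, mt-Atp6 chrM:7927-8607 and mt-Co3 chrM:8607-9390. The lengths run from 204 bases in mt-Atp8 to 1545 in mt-Co1, and the G and C content from 31.9% in mt-Atp8 to 39.9% in mt-Co1. The annotation of mt-Cytb and of mt-Co3 ends 1 base past the last whole codon, where the poly(A) tail is known to complete the stop codon. mt-Atp8 and mt-Atp6 share 43 bases, and mt-Atp6 and mt-Co3 share 1. These shared bases matter here because a read that overlaps both genes was assigned to neither in the counting. The whole of mt-Atp8 is given 5′ to 3′ with the shared bases in capitals, followed by the first 60 bases of mt-Atp6, the first 60 bases of the nuclear pseudogene Gm10925 (chr1:24614592-24614651, minus strand), and 61 bases over the junction of mt-Atp6 and mt-Co3 with its shared base in capitals.
mt-Atp8: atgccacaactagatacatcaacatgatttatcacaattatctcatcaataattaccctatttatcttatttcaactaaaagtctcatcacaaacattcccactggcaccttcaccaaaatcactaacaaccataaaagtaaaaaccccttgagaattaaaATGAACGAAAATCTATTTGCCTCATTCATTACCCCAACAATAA
mt-Atp6 start: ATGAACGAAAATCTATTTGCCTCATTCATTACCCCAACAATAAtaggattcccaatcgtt
Gm10925 start: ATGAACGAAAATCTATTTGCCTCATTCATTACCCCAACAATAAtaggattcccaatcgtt
mt-Atp6 and mt-Co3 junction: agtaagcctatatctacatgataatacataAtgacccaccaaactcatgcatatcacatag

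The sequences are from the GENCODE M21 transcripts of GRCm38. Over the 60 bases shown, mt-Atp6 and Gm10925 are the same, but no gene that corresponds to mt-Atp8 is annotated on the nuclear copy. A read that covers the capitals therefore meets both mt-Atp8 and mt-Atp6 on the mitochondrial genome, and only Gm10925 on chromosome 1.

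The libraries held 166129 to 794185 counts on genes, of which 15626 to 112042 fell outside the rRNA and ribozyme genes and 2436 to 10659 on protein-coding genes. At these depths 3 counts correspond to 3.78 to 18.1 CPM, the count per 1000000 counts on genes in the library, and each of the 6 mRNAs had 32 counts or more in every library. The libraries of a replicate number shared a sequencing run, and every isotype library carried barcode 1 and every anti-CD24 library barcode 2, so barcode and condition cannot be told apart. Of 10 B cell markers 9 had a count, 59 in all, with 0 in isotype replicate 2 and 20 in isotype replicate 3. Cd24a, the gene of the CD24 protein, had 3 counts, all in anti-CD24 replicate 1. The 4 T cell markers had no count, 3 of 4 myeloid markers had 8 counts in all, and 2 of 3 erythroid markers had 51 counts, all in anti-CD24 replicate 1. The part of these other transcripts in the values given here was not tested.

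The 6 mRNAs together held 497, 585 and 832 counts in isotype replicates 1, 2 and 3, and 514, 2455 and 1986 in anti-CD24 replicates 1, 2 and 3. As a share of the protein-coding counts, this was 9.0%, 24% and 7.81% in the isotype samples and 9.72%, 23.6% and 34.9% in the anti-CD24 samples. The 95% Wilson intervals, which cover counting error only, were narrow beside these differences, such as 22.4% to 25.8% for isotype replicate 2. The means were 13.6% ± 9.0 (SD, n = 3) and 22.7% ± 12.6 (SD, n = 3), and the groups overlapped. Within the runs the share differed by 0.721, -0.420 and 27.1 percentage points, anti-CD24 minus isotype, so that nearly all of the difference in means of 9.13 points lay in replicate 3. It was 3.05 points without anti-CD24 replicate 3, 15.6 without anti-CD24 replicate 1 and 14.3 without isotype replicate 2. Of the counts outside rRNA, the 6 mRNAs held 1.79%, 3.74% and 1.21% in the isotype samples and 0.795%, 2.19% and 2.44% in the anti-CD24 samples, and on this base the difference in means was -0.438 percentage points, anti-CD24 minus isotype (1.81% ± 0.89 and 2.25% ± 1.33, SD, n = 3 each).

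Cytochrome b, the product of mt-Cytb, is the subunit of complex III that carries electrons from ubiquinol across the inner membrane. mt-Cytb stood at 112, 295 and 89.0 CPM in isotype replicates 1, 2 and 3, and at 63.9, 280 and 330 CPM in anti-CD24 replicates 1, 2 and 3. The highest and the lowest value were both in the anti-CD24 group, which overlapped the isotype group over its whole range.

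Complex IV, cytochrome c oxidase, has its catalytic core encoded by mt-Co1, mt-Co2 and mt-Co3. mt-Co1, whose product holds the site where oxygen is reduced, stood at 409, 770 and 346 CPM in the isotype samples and 290, 934 and 818 CPM in the anti-CD24 samples. mt-Co2, whose product takes electrons from cytochrome c, stood at 226, 439 and 160 CPM and at 115, 542 and 432 CPM. mt-Co3, a core subunit without redox centres, stood at 112, 193 and 87.7 CPM and at 93.4, 295 and 161 CPM. In all 3 mRNAs the anti-CD24 sample was below the isotype sample of its run in replicate 1 and above it in replicates 2 and 3, and the groups overlapped.

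Complex V is the ATP synthase. Its subunit a, from mt-Atp6, forms the path through which protons enter and leave the rotor, and the small subunit from mt-Atp8 is part of the stator in the membrane. mt-Atp6 stood at 152, 253 and 65.5 CPM in the isotype samples and at 85.2, 372 and 295 CPM in the anti-CD24 samples. mt-Atp8 stood at 530, 1571 and 342 CPM and at 195, 911 and 465 CPM. mt-Atp6 thus followed the complex IV mRNAs, lower after anti-CD24 in replicate 1 and higher in replicates 2 and 3. mt-Atp8 was lower after anti-CD24 in replicates 1 and 2 and higher in replicate 3, and its highest value was in an isotype sample.

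**Figure D1:**
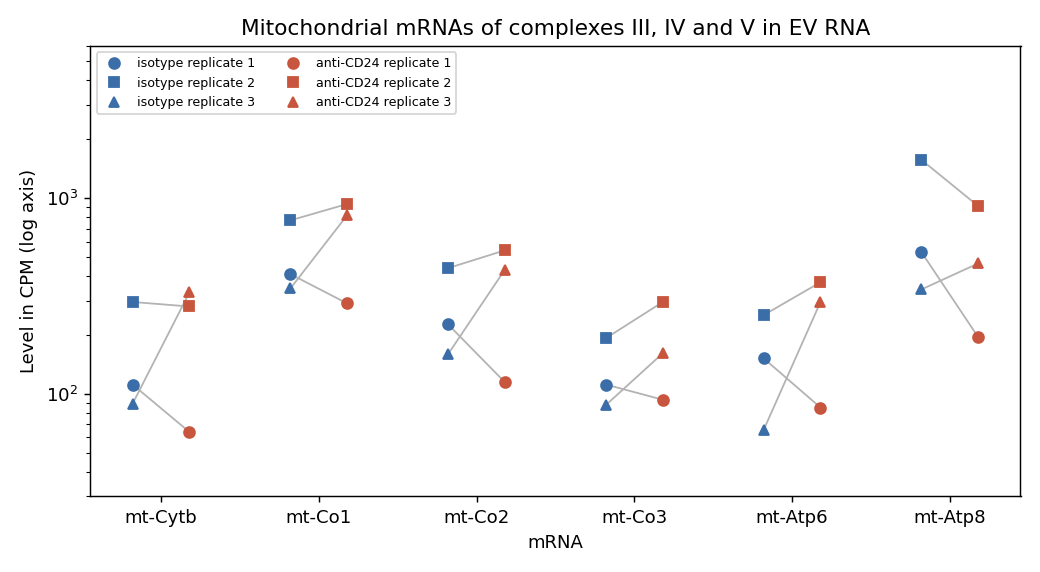
Level of each of the 6 mRNAs in CPM (log axis) in the 3 isotype samples (blue) and the 3 anti-CD24 samples (red), 1 point per sample, with a grey line between the samples of a run. The groups overlap for every mRNA, and the lines of replicate 1 fall while those of replicate 3 rise.

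The edgeR quasi-likelihood test over 1501 genes, which asked whether anti-CD24 changed the RNA content of the EVs, called none of the 6 mRNAs at an adjusted p of 0.05, and none had an unadjusted p under 0.05. Over all genes tested, 0.0666% were called, which is the single gene Zfp260, lower after anti-CD24 and named after its values were seen, and 7.93% had an unadjusted p under 0.05. With DESeq2, or with the replicate number as a block in edgeR, no gene was called, against 95 and 20 genes at an unadjusted p under 0.05. The number called was 0 without isotype replicate 1, 47 without anti-CD24 replicate 1, 0 without anti-CD24 replicate 2 and 3 without anti-CD24 replicate 3, and none of these calls was on the 6 mRNAs. The 3 were Snord83b, Snord55 and Mir6236, also named after their values were seen.

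The log2 fold change of mt-Cytb, anti-CD24 over isotype, was 1.10 ± 0.79 (SE) with a 95% interval from -0.45 to 2.66 (edgeR, adjusted p = 0.577). The SE was worked back from the test, as the size of the fold change divided by the square root of the F statistic. The intervals used degrees of freedom drawn from all genes, not from 3 samples per group alone, and their coverage was not tested. It was 0.92 ± 0.75 for mt-Co1, 0.91 ± 0.77 for mt-Co2 and 0.83 ± 0.81 for mt-Co3 (edgeR, adjusted p = 0.621, 0.639 and 0.683). mt-Atp6 gave 1.21 ± 0.79, with an interval from -0.35 to 2.77 (edgeR, adjusted p = 0.546), and mt-Atp8 -0.22 ± 0.74, with an interval from -1.67 to 1.23 (edgeR, adjusted p = 0.910). All 6 intervals include 0, and their upper bounds for the 5 other than mt-Atp8 ran from 2.38 to 2.77 on the log2 scale.

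Of the 6 fold changes 5 were above 0, with a median of 0.91 over the 6, beside a median of -0.29 over all genes tested, of which 44.7% were above 0. The size and the side of 0 changed with the setting. With DESeq2 the fold changes were 0.40 for mt-Cytb, 0.24 for mt-Co1, 0.22 for mt-Co2, 0.17 for mt-Co3, 0.53 for mt-Atp6 and -0.92 for mt-Atp8, and with library size without TMM they ran from 0.40 to 0.69 for the 5 and stood at -0.64 for mt-Atp8. With genes of at least 10 counts in every sample alone, all 6 were below 0, from -1.56 for mt-Atp8 to -0.17 for mt-Atp6. mt-Cytb was also below 0 without anti-CD24 replicate 3, at -0.077. mt-Atp8 was above 0 when rRNA genes were left out of the fit (0.31), without anti-CD24 replicate 1 (0.49) and without isotype replicate 2 (0.036). The TMM factor, the scaling relative to the total count, was 0.512 for anti-CD24 replicate 3 and 0.873 to 1.37 for the other samples.

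The other genes of the mitochondrial genome were not called either. None of the 7 complex I mRNAs was called, and their fold changes ran from -0.03 for mt-Nd4l to 1.65 for mt-Nd1, with a median of 1.32 and 6 of 7 above 0. None of the 22 mitochondrial tRNAs was called, with a median of 1.20 and all of them above 0. At an unadjusted p under 0.05 (edgeR) were 1 of the 7 complex I mRNAs, mt-Nd1, and 3 of the 22 tRNAs, beside 7.93% of all genes tested. For the 2 mitochondrial rRNAs the values were 0.27 for mt-Rnr1 and 0.22 for mt-Rnr2. In CPM the groups overlapped for all 6 mRNAs, where 5.73% of all genes tested lay higher in every anti-CD24 sample and 6.53% lower.

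**Figure D2:**
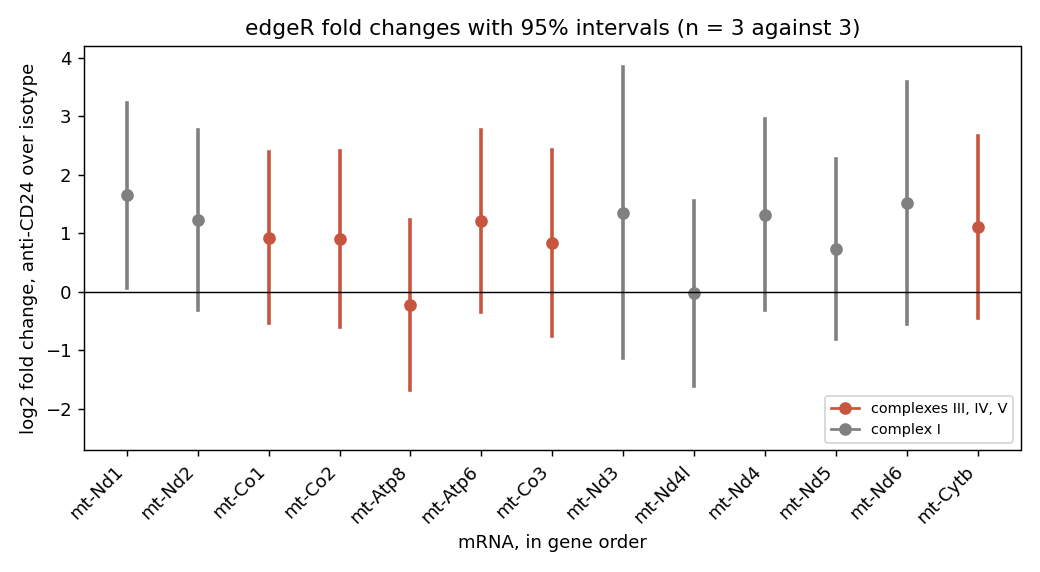
Log2 fold change of the 13 mitochondrial mRNAs, anti-CD24 over isotype, in gene order, with 95% intervals worked back from the edgeR test (points are estimates, red for the 6 mRNAs and grey for complex I). mt-Atp8 at -0.22 and mt-Nd4l at -0.03 are the only estimates below 0. Every interval of the 6 red mRNAs includes 0, and of the grey ones only that of mt-Nd1 does not, from 0.067 to 3.23.

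Levels between genes are compared here per length, as CPM per kilobase of gene. Since the RNA was sequenced without fragmentation, counts need not scale with gene length, and this was not tested. The large lead of the short mt-Atp8 below is one per kb. In counts alone mt-Co1 was 0.772, 0.490 and 1.01 times mt-Atp8 in the isotype samples and 1.49, 1.03 and 1.76 times in the anti-CD24 samples. Over the 6 samples mt-Atp8 stood at 3279 ± 2466 CPM per kb (SD, n = 6), followed by mt-Co2 at 466 ± 255, mt-Co1 at 385 ± 180, mt-Atp6 at 299 ± 180, mt-Co3 at 200.1 ± 100.7 and mt-Cytb at 170 ± 104 (SD, n = 6 each). The SDs hold differences between whole samples, and the order within a sample was more regular. In 12 of the 15 pairs of mRNAs the order was the same in all 6 samples (exact two-sided sign-flip test over samples, p = 0.03125, the smallest that 6 samples allow, adjusted p = 0.03906 over the 15 pairs). With any 1 sample left out, 0 pairs had an adjusted p under 0.05, as fewer samples raise the smallest possible p. mt-Atp8 was above mt-Co2 by 2.71 ± 0.58 on the log2 scale of counts per kb (SD, n = 6), and by at least 1.85 in every sample.

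The other neighbours in this order were close. mt-Co2 was above mt-Co1 in 5 of 6 samples by 0.21 ± 0.21 on the log2 scale (SD, exact sign-flip test, p = 0.09375, adjusted p = 0.1004). mt-Atp6 was above mt-Co3 in 5 of 6 by 0.45 ± 0.46 (SD, exact sign-flip test, the same p), and mt-Co3 above mt-Cytb in 4 of 6 by 0.37 ± 0.56 (SD, exact sign-flip test, p = 0.1875, adjusted p = 0.1875). These 3 pairs did not differ beyond their spread. mt-Co1 was above mt-Atp6 in all 6 samples, by 0.14 to 1.21.

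Among 21697 protein-coding genes ranked by mean CPM per kb, mt-Atp8 was 1st, mt-Co2 3rd, mt-Co1 4th, mt-Atp6 6th, mt-Co3 8th and mt-Cytb 10th. By mean CPM without length, mt-Atp8 was 2nd, mt-Co1 4th, mt-Co2 6th, mt-Atp6 9th, mt-Cytb 10th and mt-Co3 12th. The gene in the second place per kb was mt-Nd4l of complex I, at 486 ± 358 CPM per kb (SD, n = 6), which like mt-Atp8 is short, at 297 bases. In each of the 6 samples mt-Atp8 stood above every other mitochondrial protein-coding gene in CPM per kb. Both mitochondrial rRNAs had a higher mean, at 6748 ± 1780 CPM per kb for mt-Rnr1 and 9101 ± 3302 for mt-Rnr2 (SD, n = 6 each). Since mt-Atp8 and mt-Atp6 lie on a single mRNA, their difference per kb is one between counted regions, not between levels of separate intact mRNAs. The cause of this difference was not tested. mt-Atp8 has 161 bases that it shares with no gene, and per kilobase of these its level was 4155 ± 3124 CPM (SD, n = 6), with the order of the 6 unchanged.

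**Figure D3:**
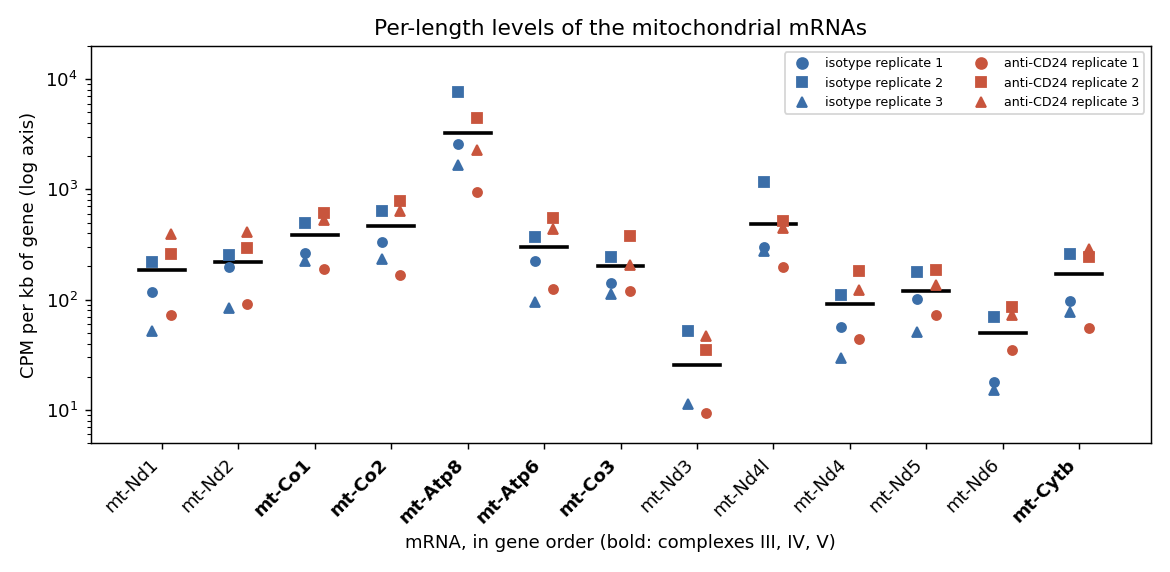
CPM per kilobase of gene (log axis) of the 13 mitochondrial mRNAs in gene order, 1 point per sample (blue isotype, red anti-CD24) and a bar at the mean of 6 samples, where mt-Nd3 in isotype replicate 1, at 0, is not drawn. mt-Atp8 has the highest mean, 3279 CPM per kb, and mt-Nd4l the next, 486 CPM per kb.

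The make-up of the 6 mRNAs, which does not depend on the scaling between samples, differed between the groups in its part of mt-Atp8. Of the counts on the 6 mRNAs, mt-Atp8 held 34.4%, 44.6% and 31.4% in isotype replicates 1, 2 and 3, and 23.2%, 27.3% and 18.6% in anti-CD24 replicates 1, 2 and 3. The groups did not overlap, with means of 36.8% ± 6.9 in the isotype and 23% ± 4.4 in the anti-CD24 samples (SD, n = 3 each). Within the runs the share differed by -11.3, -17.3 and -12.8 percentage points, anti-CD24 minus isotype. This share was chosen for its values and is given without a test.

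Counts on mt-Atp8 were 0.525, 0.806 and 0.457 times the counts on the other 5 together in the isotype samples, and 0.301, 0.376 and 0.228 times in the anti-CD24 samples. Of the 15 count ratios between the 6 mRNAs, 6 did not overlap between the groups, namely all 5 that involve mt-Atp8 and 1 of the 10 that do not. That 1 was mt-Co2 over mt-Atp6, at 1.49, 1.74 and 2.44 in the isotype samples and 1.35, 1.46 and 1.47 in the anti-CD24 samples. As background, 23.1% of the 78 ratios between the 13 mitochondrial mRNAs did not overlap, and 10 of the 12 with mt-Atp8 were among them, against 0 to 4 of the 12 of each other mRNA. The ratios of mt-Atp8 to mt-Nd2 and to mt-Nd4l overlapped, the latter with a log2 difference of -0.23, anti-CD24 minus isotype. mt-Nd4l, the other short mRNA, had 4 ratios without overlap, with mt-Co1, mt-Nd3, mt-Nd4 and mt-Nd6. It was the lower side after anti-CD24 in each of these, so the shift was not particular to mt-Atp8. In the edgeR and DESeq2 fits the other 5 of the 6 mRNAs had a higher fold change than mt-Atp8 in all 14 settings that gave a value. These settings refit the same 6 libraries and largely follow from the ratios above, so they are the same result and no separate support.

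mt-Atp6 held 9.86%, 7.18% and 6.01% of the counts on the 6 in the isotype samples and 10.1%, 11.2% and 11.8% in the anti-CD24 samples, which did not overlap, although isotype replicate 1 and anti-CD24 replicate 1 differed by only 0.258 percentage points. The shares of the other 4 overlapped between the groups, at 7.24% to 13.2% for mt-Cytb, 21.9% to 34.4% for mt-Co1, 12.5% to 17.3% for mt-Co2 and 5.47% to 11.1% for mt-Co3.

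**Figure D4:**
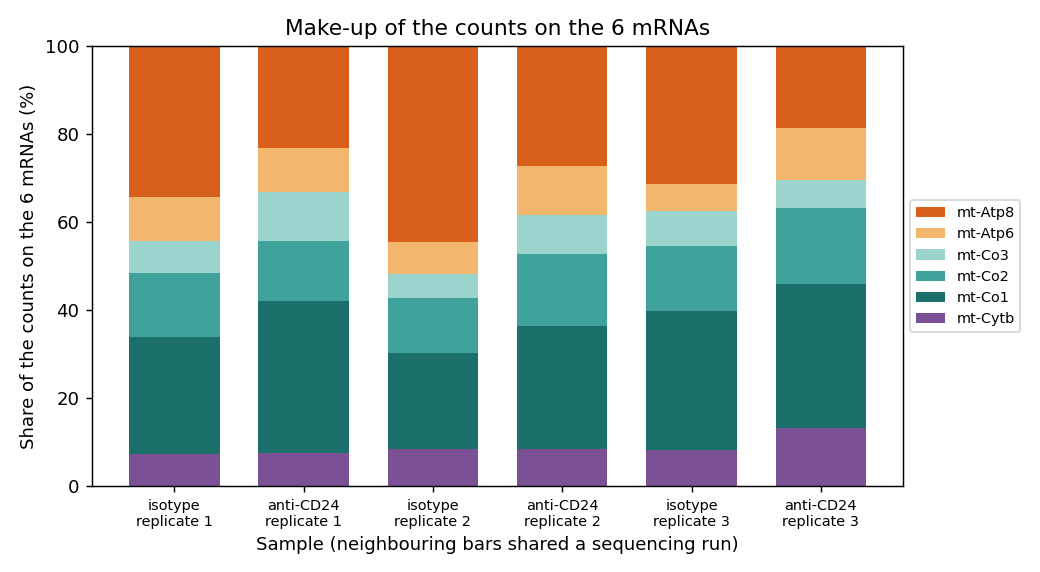
Share in percent of the counts on the 6 mRNAs held by each, 1 bar per sample, with the isotype and the anti-CD24 sample of a run side by side. mt-Atp8 (top) takes 31.4% to 44.6% in the isotype samples and 18.6% to 27.3% in the anti-CD24 samples.

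Beside the 7 complex I mRNAs, the 6 mRNAs held 69.5%, 72.2% and 75.0% of the counts on all 13 mitochondrial mRNAs in the isotype samples and 65.9%, 71.2% and 64% in the anti-CD24 samples. The share was lower after anti-CD24 in each run, with differences of -3.61, -1.02 and -10.95 percentage points, and the groups overlapped (72.2% ± 2.7 and 67.0% ± 3.7, SD, n = 3 each). With mt-Atp8 left out of both sums the difference in means was -1.02 percentage points in place of -5.20. The ratio of the 6 mRNAs to the 2 mitochondrial rRNAs was 0.102, 0.168 and 0.0439 in the isotype samples and 0.0497, 0.103 and 0.168 in the anti-CD24 samples, so that it fell in the first and the second run and rose in the third.

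The counts of these genes have to be read beside their copies in the nuclear genome. Of the annotated transcripts outside the mitochondrial genome, 10 matched 1 of the 6 mRNAs over at least 50 bases at 90% identity or more, 9 of these genes are in the count tables, and all 9 had a count, 3881 in total. Most of these counts fell on 4 pseudogenes that lie in a row on chromosome 1, in the order of their mitochondrial counterparts, and cover 4 of the 6 mRNAs. Gm28661 (chr1:24614885-24615565) is the same as mt-Co2 over 681 bases, Gm10925 (chr1:24613974-24614651) as mt-Atp6 over 678 and Gm28437 (chr1:24613189-24613971) as mt-Co3 over 783. Gm29216 (chr1:24615706-24616197) matches the last 483 bases of mt-Co1 with 1 mismatch. mt-Atp8 had no annotated match, and mt-Cytb had only Gm11410 on chromosome 4, at 92.9% identity.

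Gm28661 held 73, 73 and 122 counts in the isotype samples and 70, 399 and 344 in the anti-CD24 samples. mt-Co2 held 73, 73 and 122, and 70, 399 and 343, so that the counts were equal in 5 of 6 samples and differed by 1 in the other. Gm28437 held 38, 33 and 64 counts, and 60, 229 and 134, which differed from mt-Co3 by -3 to 12. Gm29216, which covers 31.3% of mt-Co1, held 29.9% to 39.4% of the counts of mt-Co1. No read was listed as aligned to more than 1 place in any library, and whether a read was counted on both genes was not tested. For mt-Co2, mt-Co3, mt-Atp6 and the end of mt-Co1, transcripts of the mitochondrial gene and of the pseudogene therefore cannot be told apart in these counts. For mt-Atp8 this was not tested, since a copy without an annotated transcript would have been missed.

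The more divergent copies held far fewer counts. Gm13340 on chromosome 2 matches the whole of mt-Co1 at 97.6% identity and held 1.56% to 11.2% as many counts. Gm13341, beside it, matches mt-Co2 at 95.9% identity and held 1, 0 and 1 counts in the isotype samples and 7, 10 and 9 in the anti-CD24 samples. These groups did not overlap, with a fold change of 2.97 ± 1.47 (SE, log2) that was not called (edgeR, adjusted p = 0.546). Gm11410 held 0, 0 and 9 counts in the isotype samples and 0, 2 and 0 in the anti-CD24 samples. Gm11512, which matches 654 bases of mt-Co1 at 90.7% identity, held 2 counts, and Gm43743, which matches 116 bases of mt-Atp6 at 94.8%, held 1.

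Gm10925 differed from its mitochondrial counterpart. It held 113, 96 and 175 counts in the isotype samples and 105, 440 and 426 in the anti-CD24 samples, against 49, 42 and 50, and 52, 274 and 234, on mt-Atp6. The excess was present in all 6 samples and ran from 53 counts in anti-CD24 replicate 1 to 192 in anti-CD24 replicate 3. Gm10925 was 2.31, 2.29 and 3.50 times mt-Atp6 in the isotype samples and 2.02, 1.61 and 1.82 times in the anti-CD24 samples, which did not overlap. The 43 bases in capitals above are a place where the annotation of the 2 loci differs, since no counterpart of mt-Atp8 is annotated on chromosome 1. Mitochondrial and chromosome 1 positions add up to 24622578 for both Gm28661 and Gm10925, so their spacing is that of mt-Co2 and mt-Atp6. Whether the bases between them hold the sequence of mt-Atp8 was not tested, as only annotated transcripts were searched. The excess amounted to 0.243% to 2.07% of the reads that the counting set aside as ambiguous, and to 0.207 to 0.520 times the counts on mt-Atp8. How many of the ambiguous reads came from the 43 bases cannot be read from these tables.

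With the counts of the matching copies added to each mRNA, mt-Co2 stood at 943 CPM per kb, mt-Atp6 at 902, mt-Co1 at 542, mt-Co3 at 408 and mt-Cytb at 172, so that mt-Atp6 was above mt-Co1, and 14 of the 15 pairs had the same order in all 6 samples. The difference in the share of the protein-coding counts was then 12.4 percentage points, and the log2 fold change of mt-Atp6 0.88. Adding the copies would count a read more than once if it had been counted on both genes, which was not tested. mt-Atp8 had no annotated match to add, so this setting raises the mRNAs unevenly.

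When the identical copies stood in for mt-Atp6 and mt-Co3, which was tried after the data were seen, mt-Atp6 rose from 299 to 603 CPM per kb and from the fourth to the second place in the order, and its log2 fold change was 0.69 in place of 1.21. mt-Co3 moved only from 200.1 to 208 CPM per kb, and its fold change from 0.83 to 0.88. mt-Atp8 stood first at 3279 CPM per kb in both settings. The ratio of mt-Atp8 to Gm10925 was 1.51, 2.72 and 1.49 in the isotype samples and 1.13, 1.52 and 0.866 in the anti-CD24 samples. It was lower after anti-CD24 in each run, and the groups overlapped, whereas the ratio of mt-Atp8 to mt-Atp6 did not.

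**Figure D5:**
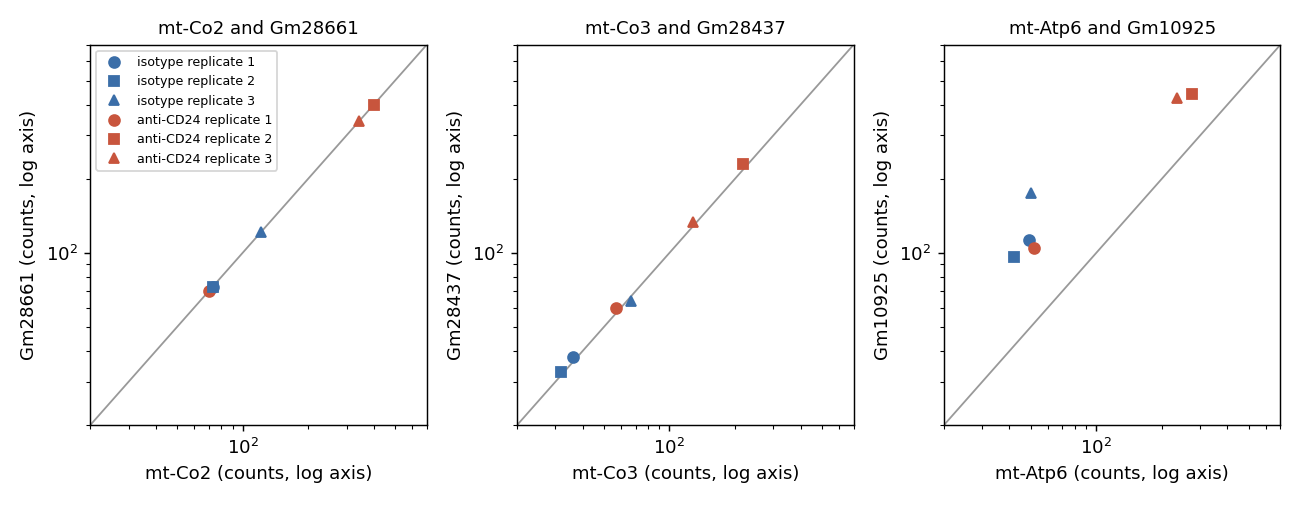
Counts per library on 3 nuclear pseudogenes against the mitochondrial gene whose sequence they share (both axes log, grey line at equal counts, blue isotype and red anti-CD24 samples; 2 isotype points coincide for mt-Co2). Gm28661 lies on the line and Gm28437 close to it, while Gm10925 lies 1.61 to 3.50 times above it.

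The genes whose profile over the 6 samples was most like that of the 6 mRNAs summed were the same pseudogenes. As these share sequence with members of the sum, and the counts of Gm28661 nearly equal those of mt-Co2, their high places were largely set in advance. Likeness was the mean absolute difference of centred log2 CPM, over 220 genes outside the mitochondrial genome with at least 60 counts, and its median over all 252 genes with that many counts was 0.948. Gm28661 differed by 0.122, Gm10925 by 0.143, Gm29216 by 0.165 and Gm28437 by 0.266. The fifth was Gm10222 on chromosome 1, at 0.321, with 30, 58 and 62 counts in the isotype samples and 39, 114 and 105 in the anti-CD24 samples, where mt-Nd4l had 29, 58 and 62, and 36, 114 and 105. On the mitochondrial genome mt-Co2, itself a part of the sum, was the closest at 0.121, while mt-Rnr1 was at 0.559 and mt-Rnr2 at 0.710.

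The nuclear-encoded partners of these subunits held few counts, in libraries with only 2436 to 10659 counts on protein-coding genes. Over all 47729 genes counted, 9700 had a count in any sample. Of 37 nuclear genes for subunits and the inhibitor of complexes III, IV and V, all of them in the tables, 11 had a count, with 18 counts in total over the 6 libraries and none that passed the filter of 1 CPM in 3 samples. Isotype replicate 2 held 0 of these counts and isotype replicate 3 held 9. The most were on Atp5b, the catalytic beta subunit of the ATP synthase, with 0, 0 and 4 counts in the isotype samples and 0, 1 and 0 in the anti-CD24 samples, followed by Atp5a1, Atp5j and Atp5o with 2 counts each. The 9 nuclear genes of complex III held 3 counts, the 11 of complex IV held 2 and the 17 of complex V held 13. In the same libraries mt-Cytb held 660 counts, the 3 mRNAs of complex IV 3656 and the 2 of complex V 2553.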

How the data were processed

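RNA of EVs from 3 isotype and 3 anti-CD24 cultures was sequenced on an Ion PGM. After trimming with FASTX and alignment with tmap, the authors counted reads on Ensembl exons of GRCm38 using htseq-count (HTSeq 0.5.4p5, union mode, stranded), and deposited raw counts per gene, not normalized. The labels give GRCm38.p4. The 5 summary lines of each file, 25.9% to 64.9% of the reads listed per file, were left out. Gene names and positions came from GENCODE M21, which holds 47310 of the 47729 genes, and copies were found with BLAST+ 2.17.0. Genes with 1 CPM in 3 or more samples were tested with edgeR 4.0.16 (R 4.3.3; TMM, quasi-likelihood, condition only, Benjamini-Hochberg). The scripts were tested on simulated data. For edgeR the simulated fold changes were far larger than those of the 6 mRNAs, so the recovery of changes of their size was not tested. Levels were compared by exact sign-flip tests of log2(count + 0.5) per kb (scipy 1.17.1). Replicate numbers mark shared sequencing runs, per the labels' file names, and so pair the samples; deviations from group means correlated at -0.030, -0.024 and -0.106. The mRNAs and gene lists were chosen with earlier results of these data known. The genes named are the 6 mRNAs, the rest of their genome, matched nuclear copies with a count, the 3 nuclear subunit genes with the most counts (4 with ties) and the 5 most alike profiles. Alternatives were DESeq2 1.42.0, a replicate block, other scalings and filters, copies added or exchanged, and each sample left out. The values of 1 B cell marker are not reported here.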

Additional observations from a re-analysis of the deposited data

How the results depend on the processing

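No setting called any of the 6 mRNAs, with adjusted p from 0.137 to 0.991 over all alternatives. Genes called numbered 1 as reported, 0 with DESeq2, 0 with the replicate block, 2 without a filter (Zfp260 and Fabp12, the second named after its values were seen), 0 with at least 10 counts in every sample, and 0 to 47 with 1 sample left out. The block gave fold changes of 0.49 to 0.84 for 5 mRNAs and -0.37 for mt-Atp8, and changed no call among the 6. With at least 10 counts in every sample, which left 134 genes, fold changes were -0.43 for mt-Cytb, -0.46 for mt-Co1, -0.51 for mt-Co2, -0.38 for mt-Co3 and -0.17 for mt-Atp6. mt-Atp8 was 0.31 with rRNA genes removed. With 1 sample left out, fold changes ran from -0.077 to 1.71 for mt-Cytb, 0.13 to 1.51 for mt-Co1, 0.099 to 1.56 for mt-Co2, 0.30 to 1.45 for mt-Co3, 0.40 to 1.87 for mt-Atp6 and -0.98 to 0.49 for mt-Atp8, the pairs in constant order from 12 to 13, and the differences in share from 3.05 to 15.6 percentage points of the protein-coding counts and from -7.28 to -3.68 of the 13 mRNAs. That of the protein-coding counts became -0.438 with counts outside rRNA as the base, and that of the 13 mRNAs -1.02 without mt-Atp8. The cause was not tested. The median of all genes tested moved from -0.29 to -0.97 with DESeq2, to -0.88 with its size factors, to -0.08 without rRNA genes and to 0.01 with at least 10 counts. The smallest count on the 6 mRNAs was 32, for mt-Co3 in isotype replicate 2, the shallowest library, and this depth limits the precision of the ratios. Other genes named had fewer, down to 0 in some libraries.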
